A study of Mus musculus with 30 samples.

Results

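The subunits of the respiratory chain and of ATP synthase were followed in the sclera of mice between 1 and 8 weeks of age. Members were taken by name from the platform's probe-to-gene table: every transcript cluster, the array's unit of roughly 1 gene, that carries exactly 1 gene symbol starting with Ndufa, Ndufb, Ndufc, Ndufs, Ndufv, Sdh, Uqcr, Cox4 to Cox8 or Atp5. Where a gene had several such transcript clusters, the brightest over all arrays stood for it. This gave 93 genes of the 19938 with a symbol of their own. They were 34 subunits of complex I, 4 of complex II, 8 of complex III, 17 of complex IV, 17 of complex V, 11 assembly factors that share the Ndufa or Sdh stem, and 2 further genes, Ndufa4l2 and Cox7a2l. No expression value entered the choice of genes. The rule took 119 transcript clusters of 35556, and 6 more were left out because they carry several symbols, so that Cox7c and Ndufb4 have no value here.

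Each array held total RNA from the single sclera of 1 Balb/cJ mouse, an albino inbred strain, at 1, 2, 3, 6 or 8 weeks of age, with 6 mice at each age. The mice came from a single holding unit and the same family, and no treatment or engineered allele is named for them. All values are log2 signals of the Mouse Gene 1.0 ST array as deposited, so a difference of 1 is a 2-fold change. Each age was compared with the age sampled before it, which gave 4 comparisons, and week 8 versus 1 spans the whole period as a further one. They ask how gene expression in the sclera changes while the eye of the mouse grows, and since they share weeks they are not independent of each other.

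The respiratory chain lies in the inner mitochondrial membrane. Complex I takes electrons from NADH and complex II takes them from succinate, ubiquinone carries them to complex III, cytochrome c carries them to complex IV, and complex IV passes them to oxygen. Complexes I, III and IV pump protons as they work, and complex V, ATP synthase, makes ATP from the proton gradient. The core subunits that hold the metal centres are joined by many small accessory subunits, and a few subunits of complex IV have a second form that is known from striated muscle. Cox6a2, Cox7a1 and Cox8b are such forms, with Cox6a1, Cox7a2 and Cox8a as their widely expressed counterparts. Cox7a1 and Cox8b are known from brown fat as well. The sclera is the collagen-rich outer coat of the eye, made by fibroblasts, and the extraocular muscles insert on it.

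Before any comparison, the arrays of weeks 2 and 6 need a remark. Week 2 replicate 4 equalled the mean of the other 5 week 2 arrays in all 35556 transcript clusters, with a largest difference of 8e-05, whereas the median difference for the next array of that week was 0.207. In week 6 the mean of replicates 4 and 6 equalled the mean of the other 4 arrays, with a largest difference of 7.5e-05. No such relation was found in weeks 1, 3 and 8 among subsets of 1, 2 or 3 arrays. The methods of the study describe the removal of scan date effects, but which arrays were scanned together is not stated in the sources used. Whether that step made these equalities was not tested. Week 2 replicate 4 carries no value of its own, so the tests used 29 arrays, 5 of them from week 2. The 6 arrays of week 6 stayed in, although the equality ties them to each other. All 30 arrays gave the same fold changes, with 11, 0, 4, 2 and 9 members called at 2-fold in the 5 comparisons, as did 27 arrays without the week 6 pair too.

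Within week 2, the members also stood apart in replicates 1 and 2. The mean signal over the 93 members was 7.79 and 7.72 in these 2 arrays and 8.18, 8.26 and 8.08 in replicates 3, 5 and 6. The interquartile range of all transcript clusters, a measure of an array's spread, was 2.22 and 2.23 in the former and 2.34, 2.56 and 2.47 in the latter, and averaged 2.70, 2.36, 2.75, 2.44 and 2.53 in weeks 1, 2, 3, 6 and 8. The calls and median changes of the 93 members from and to week 2 are therefore given with and without these 2 arrays. Other values that rest on week 2, those of single genes, complexes, isoform pairs, lists and covariate fits among them, include both arrays. Array medians lay between 6.151 and 6.369.

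The arrays also held RNA of tissues beside the sclera, in amounts that differed with age. In weeks 1, 2, 3, 6 and 8 the mean log2 signal of 20 striated muscle markers was 10.46 ± 0.83, 6.96 ± 0.60, 6.69 ± 0.69, 9.44 ± 0.64 and 9.88 ± 0.57 (SD over 6 arrays, 5 for week 2). It ranged from 8.998 to 11.32 in week 1 and from 6.25 to 7.60 in week 2, without overlap. The 12 markers of scleral fibroblasts and their matrix stood at 10.39, 9.21, 10.20, 9.85 and 9.67, the 13 photoreceptor markers at 8.999, 5.79, 7.06, 6.72 and 6.62, and the 6 of retinal pigment epithelium at 8.77, 5.51, 7.32, 8.21 and 6.98. The 12 surface epithelium markers went the other way, from 8.46 in week 1 to 10.83, 10.80, 10.62 and 11.07. The 7 markers of macrophages and leukocytes averaged 6.43, 5.79, 6.30, 6.63 and 6.62, and their arrays did not overlap between week 1 (6.13 to 6.64) and week 2 (5.59 to 5.99). The weekly means lay between 6.09 and 6.75 for the 2 of erythroid cells and between 5.14 and 5.58 for the 5 of adipocytes. In pieces of whole tissue, fewer cells of a type and less RNA per cell cannot be told apart.

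The 250 bases before the annotated start of transcription are shown for isoforms of complex IV that the results below turn on. The muscle forms Cox7a1 and Cox8b differ there from the counterparts shown in their number of CG dinucleotides. The sequences are those of RefSeq on GRCm38.p6, written 5′ to 3′ on the gene's strand, and capitals mark CG dinucleotides. The windows are chr7:30183921-30184170 (plus strand) for Cox7a1, chr7:140900447-140900696 (minus) for Cox8b, chr5:115348959-115349208 (minus) for Cox6a1, chr9:79759854-79760103 (minus) for Cox7a2 and chr19:7217617-7217866 (minus) for Cox8a. Cox6a2, the other muscle form, had no promoter sequence in the source used and is not shown.
Cox7a1: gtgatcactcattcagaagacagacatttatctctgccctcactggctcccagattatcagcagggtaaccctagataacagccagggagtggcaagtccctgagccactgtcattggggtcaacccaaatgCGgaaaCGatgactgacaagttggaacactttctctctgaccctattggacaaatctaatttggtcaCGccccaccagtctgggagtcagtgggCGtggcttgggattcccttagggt
Cox8b: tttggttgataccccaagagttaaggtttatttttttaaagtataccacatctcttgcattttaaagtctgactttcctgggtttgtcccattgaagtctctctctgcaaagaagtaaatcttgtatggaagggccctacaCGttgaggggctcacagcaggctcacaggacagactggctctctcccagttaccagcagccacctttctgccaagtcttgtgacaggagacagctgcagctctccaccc
Cox6a1: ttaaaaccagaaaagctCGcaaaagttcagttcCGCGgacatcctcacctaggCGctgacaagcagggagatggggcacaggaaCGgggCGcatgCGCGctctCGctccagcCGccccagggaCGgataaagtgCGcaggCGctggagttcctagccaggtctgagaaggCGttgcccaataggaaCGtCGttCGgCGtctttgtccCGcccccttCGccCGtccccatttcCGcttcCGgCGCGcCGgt
Cox7a2: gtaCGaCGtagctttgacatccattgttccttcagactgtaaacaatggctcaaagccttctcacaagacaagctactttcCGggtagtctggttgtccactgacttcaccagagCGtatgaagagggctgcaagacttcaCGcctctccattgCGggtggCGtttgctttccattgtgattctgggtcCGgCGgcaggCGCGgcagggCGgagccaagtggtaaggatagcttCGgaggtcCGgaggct
Cox8a: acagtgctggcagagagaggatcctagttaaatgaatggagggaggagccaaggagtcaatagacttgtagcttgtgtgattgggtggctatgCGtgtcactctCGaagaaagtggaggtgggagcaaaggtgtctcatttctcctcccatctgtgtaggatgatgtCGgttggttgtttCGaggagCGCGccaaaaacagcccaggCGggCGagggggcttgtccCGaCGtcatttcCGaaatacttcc

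The muscle forms Cox7a1 and Cox8b had 4 and 1 CG dinucleotides in these windows, and the counterparts Cox6a1, Cox7a2 and Cox8a had 26, 14 and 11. Low numbers were not particular to muscle forms, since Ndufc2 had 4 and Cox7b and Uqcr10 had 5 each. A promoter sequence was found for 77 of the 93 members, in 82 windows, which had a median of 14.5 CG dinucleotides and 57.0% GC, against 6 and 52.4% over all 32851 windows of the table. These 250 bases were searched for 6 motifs on both strands. GCGCA and GCGC parted by any base, the core of the element bound by NRF1, a factor known for nuclear genes of mitochondria, occurred in 17.1% of the member windows and in 3.74% of all windows. CCGGAAG, an ETS core that factors such as GABPA bind, occurred in 18.3% and 6.91%. The E-box CANNTG was in 61.0% and 66.2%, the ERR element AAGGTCA in 4.88% and 4.08%, the MEF2-type element, CTA and TAG parted by any 4 bases, in 1.22% and 3.20%, and TATAAA in 9.76% and 12.4%. Cox6a1 held the NRF1 core at -162 to -153 and at -117 to -108 and the ETS core at -16 to -10, counted from the start, and neither was found in the other 4 windows printed. An E-box lay at -124 to -119 in Cox7a1, at -19 to -14 in Cox8b, at -35 to -30 in Cox7a2 and at -102 to -97 in Cox8a. These are matches of letters and not measured sites.

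Over the whole period the members were highest in week 1. Taken over the 93 members, the mean log2 signal of the successive weeks was 8.55 ± 0.11, 8.01 ± 0.24, 8.21 ± 0.10, 8.31 ± 0.12 and 8.06 ± 0.09 (SD over 6 arrays, 5 for week 2). No array of weeks 2 or 8, which reached 8.26 and 8.14, came up to the lowest array of week 1, at 8.35. The weekly mean was highest in week 1 for 63 members, or 67.7%, against 22.5% of all genes. It was lowest in week 2 for 34 members and in week 8 for another 34, or 36.6% each, against 22.9% and 12.6% of all genes.

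**Figure D1:**
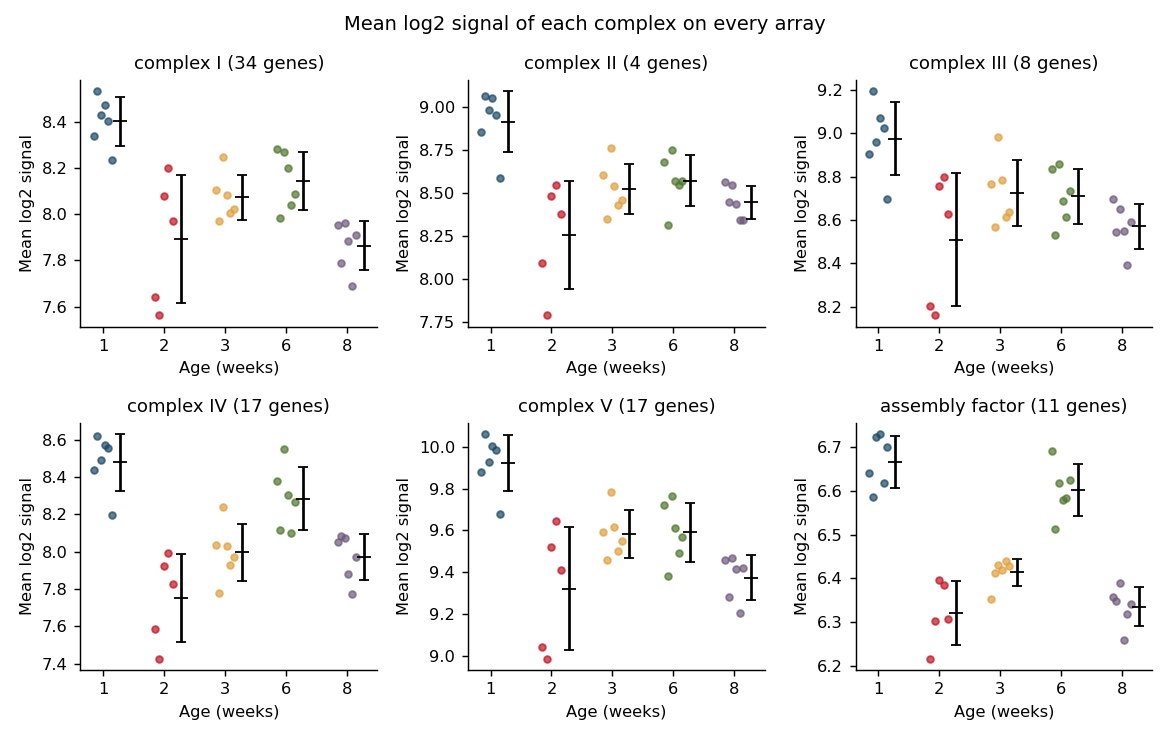
Mean log2 signal of the subunits of each complex and of the assembly factors on every array used, by week, with each point standing for 1 mouse and bars for the weekly mean and SD. Week 1 was the highest week in every panel, and week 2 spread the most in complexes I to V, with replicates 1 and 2 at its lower end.

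Between weeks 1 and 2 most of the members fell. Of the 93 members, 11 were downregulated at least 2-fold at an adjusted p of at most 0.05, or 11.8%, against 7.16% of all genes, and none was upregulated, against 3.52% of all genes. At the adjusted p alone 70 members fell, or 75.3%, against 32.7% of all genes, and 6 rose, against 36.6%. The members are bright, with 87 of the 93 above the median mean signal of all transcript clusters, at 6.23. All genes are thus not matched to them in signal in any comparison, and the part of signal level and array spread was not tested. The median log2 fold change was -0.51 over the members and 0.05 over all genes, and 84 members lay below 0. In a fit of only the transcript clusters above the median signal, with 87 members, 69 fell and 3 rose at the adjusted p alone. Without week 2 replicates 1 and 2, 4 members were called at 2-fold (Cox8b, Cox7a1, Ndufs1 and Atp5md), 49 fell and 5 rose at the adjusted p alone, and the median was -0.31. Leaving out replicate 2 alone gave 5 calls at 2-fold and replicate 1 alone 7, and quantile normalization gave 4.

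The muscle forms Cox8b and Cox7a1 of complex IV had the largest changes of the 93 members. Cox8b, a small subunit, had a lowest, median and highest signal of 9.16, 10.03 and 10.52 in week 1 and stood at 6.02, 5.23, 7.08, 6.89 and 6.71 in week 2 replicates 1, 2, 3, 5 and 6. The 2 weeks did not overlap, and the log2 fold change was -3.56 ± 0.35 (SE), a fold change of -11.8 (adjusted p = 7.92e-09). Cox7a1, another small accessory subunit, had 7.18, 8.45 and 9.38 in week 1 and 5.60, 5.31, 6.79, 6.78 and 6.30 in week 2, a fold change of -4.84 (adjusted p = 1.76e-06). Every week 2 array was below every week 1 array here as well. For Cox6a2, also an accessory subunit, the week 1 values of 7.44, 8.73 and 9.44 overlapped the week 2 values of 7.15, 7.01, 7.85, 7.87 and 7.29, and the fold change was -2.24 (adjusted p = 0.00153).

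The other subunits of complex IV moved less and mostly the same way. In all, 13 of its 17 members fell, 2 rose, and the median log2 fold change was -0.46. Cox6c had 10.24, 10.38 and 10.46 in week 1 against 9.01, 8.98, 9.58, 9.67 and 9.44 in week 2, with a log2 fold change of -1.04 ± 0.12 (adjusted p = 8.99e-08). Cox5b had 9.93, 10.17 and 10.35 against 8.85, 8.76, 9.45, 9.52 and 9.22, with a change of -1.01 ± 0.14 (adjusted p = 6.9e-07). All week 2 arrays lay below week 1 for both. The counterparts of the muscle forms fell by less than 2-fold, Cox7a2 by 0.91, Cox6a1 by 0.43 and Cox8a by 0.40 on the log2 scale. The members that rose were Cox8c, by 0.54, and Cox7b2, by 0.50, both of which are known from testis.

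In complex I, 27 of 34 subunits fell and 2 rose, with a median of -0.56. Ndufs1, the largest core subunit and the bearer of iron-sulfur clusters, had 8.58, 8.94 and 9.12 in week 1 and 7.03, 6.91, 8.01, 7.93 and 7.55 in week 2, a log2 fold change of -1.40 ± 0.15 (adjusted p = 2.41e-08). Also called at 2-fold were 3 accessory subunits of the membrane arm. Ndufa1 had 8.12, 8.25 and 8.40 in week 1 and 6.71, 6.58, 7.28, 7.79 and 7.32 in week 2 (adjusted p = 4.2e-06), Ndufc1 had 9.21, 9.35 and 9.51 against 7.86, 7.62, 8.76, 8.57 and 8.38 (adjusted p = 4.17e-07), and Ndufc2 had 9.43, 9.65 and 9.97 against 8.36, 8.37, 8.81, 8.94 and 8.81 (adjusted p = 3.53e-08). In each of the 4, no week 2 array reached week 1, and replicates 1 and 2 were the lowest. Of the other core subunits, Ndufv2, Ndufs7, Ndufv1 and Ndufs3 fell by 0.81, 0.72, 0.59 and 0.37, and Ndufs8 changed by -0.18 (adjusted p = 0.126). The members that rose were Ndufs6, by 0.28, and Ndufa7, by 0.26.

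Complex II, which is also succinate dehydrogenase of the citric acid cycle, fell in 3 of its 4 subunits. The membrane anchor Sdhc had 8.57, 9.07 and 9.21 in week 1 and 7.76, 7.55, 8.25, 8.29 and 7.99 in week 2, a log2 fold change of -1.03 ± 0.15 (adjusted p = 1.4e-06). The flavoprotein Sdha, at 9.53, 9.67 and 9.96 in week 1, came to 8.64, 8.43, 8.96, 8.97 and 8.90 in week 2 and fell by 0.94 (adjusted p = 2.29e-08). Neither overlapped between the weeks. The second anchor, Sdhd, fell by 0.40, and the iron-sulfur subunit Sdhb changed by -0.27 ± 0.16 (adjusted p = 0.131). Sdhb passed the test in none of the 5 comparisons.

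In complex III, 6 of 8 subunits fell, none reached 2-fold, and the median was -0.56. Uqcrb, which helps to form the ubiquinone site, had 9.98, 10.25 and 10.43 in week 1 and 9.04, 8.98, 9.85, 9.90 and 9.59 in week 2, and fell by 0.77 (adjusted p = 1.45e-05). The core protein Uqcrc2 fell by 0.58 and the Rieske iron-sulfur protein Uqcrfs1 by 0.54. The other core protein, Uqcrc1, changed by -0.11 and did not pass the test, and neither did Uqcr11.

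In complex V, 13 of 17 subunits fell and none rose, with a median of -0.51. Atp5md, a small membrane subunit, had 9.97, 10.02 and 10.25 in week 1 and 8.04, 7.99, 9.04, 9.30 and 8.75 in week 2, a log2 fold change of -1.44 ± 0.17 (adjusted p = 7.05e-08). The catalytic subunit Atp5b had 11.51, 11.68 and 11.92 against 10.55, 10.37, 11.02, 11.03 and 10.86, and fell by 0.96 (adjusted p = 3.21e-08). Both showed all week 2 arrays below week 1. Atp5mpl, Atp5c1 and Atp5a1, the first a small membrane subunit and the others of the catalytic head and its stalk, fell by 0.93, 0.85 and 0.72. Those that did not pass the test were Atp5d, Atp5e, Atp5g2 and Atp5j2, at -0.17, -0.24, 0.05 and -0.24.

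Of the 11 assembly factors, 7 fell and 1 rose in this comparison. Ndufaf4, a factor for complex I, fell by 0.73 ± 0.08 (adjusted p = 2.48e-08). The factor that rose was Sdhaf4, which helps to build complex II, by 0.51 ± 0.14 (adjusted p = 0.00352), but its other transcript cluster changed by -0.52, so its direction is not settled. Of the 2 further genes, Cox7a2l, which takes part in joining complexes III and IV, rose by 0.34 (adjusted p = 0.00422), and Ndufa4l2 fell by 0.58 (adjusted p = 0.00203).

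**Figure D2:**
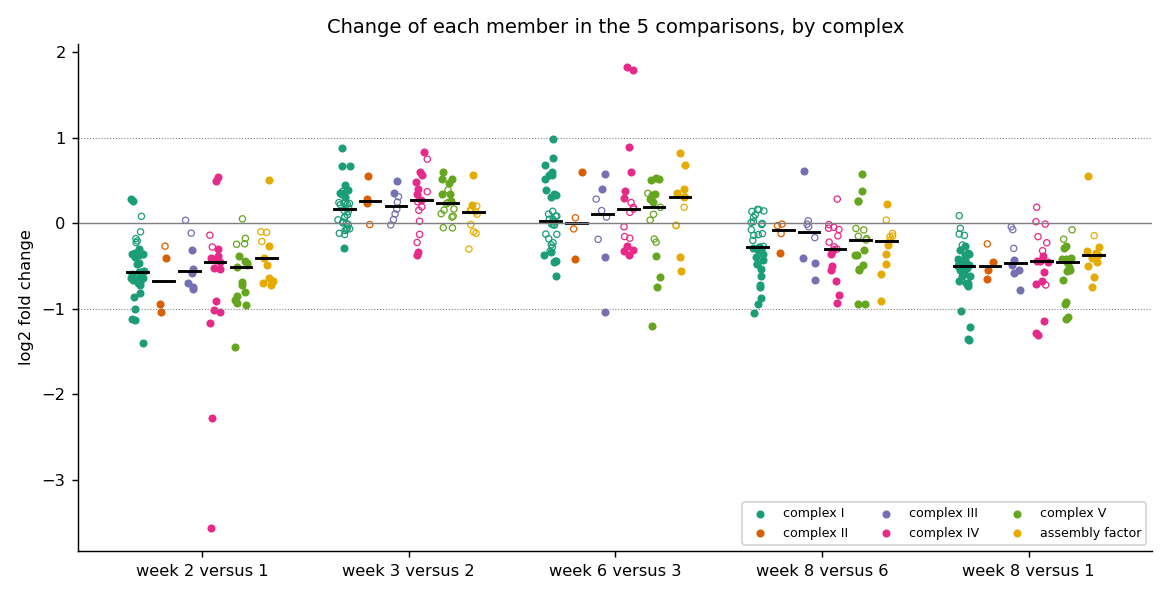
Log2 fold change of each subunit and assembly factor in the 5 comparisons, coloured by complex, with filled points for members at an adjusted p of at most 0.05, open points for the others, black bars for medians and dotted lines at a 2-fold change. In week 2 versus 1 the medians of complexes I to V lay between -0.67 and -0.46, and the lowest points are Cox8b and Cox7a1 of complex IV.

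From week 2 to week 3 the members recovered in part. None was called at 2-fold in either direction, against 2.87% of all genes upregulated and 0.196% downregulated. At the adjusted p alone 31 members rose, or 33.3%, against 27.2% of all genes, and 3 fell, or 3.23%, against 23.4%. The median log2 fold change was 0.20 over the members and 0.01 over all genes. This comparison rests on the low week 2 arrays: without replicates 1 and 2, 10 members rose, 1 fell and the median was 0.03, and 21 members passed the test without replicate 2 alone. After quantile normalization 11 rose, 11 fell and the median was -0.01.

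The risers came from every complex, with 9 of 34 in complex I, 3 of 4 in complex II and 2 of 8 in complex III. In complexes IV and V they were 7 of 17 each. The share of all genes was 27.2%, and complexes I and III were near it. Ndufa1 rose by 0.88 ± 0.17 (adjusted p = 0.000227), to a week 3 lowest, median and highest of 7.71, 8.00 and 8.43. Its lowest week 3 array was still below the highest of week 2. Cox6a1 rose by 0.83 ± 0.13 (adjusted p = 1.69e-05) and reached 9.18, 9.42 and 9.58, with 8.68, 9.01 and 9.22 in week 1, a difference that was not tested. Its fellow counterparts Cox8a, with 8.75, 8.90 and 9.13 in week 3, and Cox7a2, with 7.79, 7.85 and 8.08, changed by 0.57 (adjusted p = 0.000327) and 0.15 (adjusted p = 0.271). Cox8b, Cox7a1 and Cox6a2 were still low against week 1, with week 3 medians of 7.22, 5.86 and 7.32, and none passed the test. Relative to Cox8a, Cox7a2 and Cox6a1 on the same array, they changed by 0.18, -0.38 and -0.81. None of these differences passed an exact permutation test (adjusted p = 0.659, 0.508 and 0.136). The 3 members that fell were Ndufa7, Cox7b2 and Cox8c.

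From week 3 to week 6 the members parted. Of the 93, 33 rose, or 35.5%, against 30.3% of all genes, and 20 fell, or 21.5%, against 24.8%, so that both shares were near those of all genes. At 2-fold, 2 were upregulated and 2 downregulated, or 2.15% each, against 1.94% and 3.03% of all genes. The median was 0.09 over the members and 0.06 over all genes. With the arrays centred on their medians, 23 rose, 27 fell and the median was 0.00, so the balance of the directions is not settled. The calls at 2-fold were 0 up and 6 down with the muscle markers of each array as a covariate, and 6 up and 0 down with the array's interquartile range as a covariate.

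The upregulated members were the muscle forms Cox8b and Cox7a1. Cox8b had 6.35, 7.22 and 7.73 in week 3 and 8.08, 8.97 and 10.17 in week 6, without overlap, a fold change of 3.56 (adjusted p = 4.9e-05). Cox7a1 had 5.39, 5.86 and 6.89 and then 7.16, 7.73 and 8.27, also without overlap, a fold change of 3.46 (adjusted p = 2.87e-05). Cox6a2, at 6.89, 7.32 and 8.57 in week 3 and 7.82, 8.31 and 8.96 in week 6, rose 1.85-fold (adjusted p = 0.0108) with overlap between the weeks. Ndufs1 of complex I, the core subunit named above, went from 7.63, 7.70 and 7.92 to 8.57, 8.67 and 8.97, without overlap, and rose 1.98-fold (adjusted p = 1.81e-06).

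The downregulated members belonged to complexes III and V. Atp5d, the delta subunit in the stalk of ATP synthase, had 10.25, 10.38 and 10.54 in week 3 and 8.83, 9.23 and 9.36 in week 6, a log2 fold change of -1.20 ± 0.11 (adjusted p = 1.63e-09). Uqcrc1 had 10.17, 10.29 and 10.36 and then 9.01, 9.23 and 9.40, a change of -1.04 ± 0.11 (adjusted p = 2.39e-08). Neither overlapped between these weeks, and both had been among the members that did not pass the test from week 1 to 2. Within the same complexes other subunits rose: the second core protein of complex III, Uqcrc2, went from 9.08, 9.18 and 9.29 to 9.59, 9.74 and 9.995 (adjusted p = 3.11e-05), and Atp5c1 of ATP synthase rose by 0.54 (adjusted p = 1.77e-05). In complex II, Sdha rose by 0.60 while Sdhd fell by 0.42, and among the core subunits of complex I, Ndufs8 fell by 0.61 and Ndufs7 by 0.44 while Ndufv2 rose by 0.39. The assembly factor Ndufaf4 rose by 0.82 ± 0.07 (adjusted p = 7.75e-10).

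From week 6 to week 8 the members fell again. At the adjusted p alone 41 fell, or 44.1%, against 21.9% of all genes, and 6 rose, or 6.45%, against 11.9%. The median was -0.25 over the members and -0.05 over all genes. At 2-fold, 2 were downregulated, against 1.13% of all genes, and none was upregulated, against 0.226%. In complex I 16 of 34 fell and none rose, in complex IV 7 of 17 fell and none rose, and in complex V 8 of 17 fell and 4 rose.

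The called members were Cox7a2l and Ndufs6. Cox7a2l had 8.95, 9.21 and 9.46 in week 6 and 7.84, 8.03 and 8.18 in week 8, a fold change of -2.28 (adjusted p = 7.34e-10). Ndufs6, a zinc-binding accessory subunit of complex I, had 8.16, 8.26 and 8.52 and then 6.99, 7.19 and 7.60, a fold change of -2.08 (adjusted p = 2.71e-09). The weeks did not overlap for either. The small membrane subunits Atp5mpl and Atp5l both fell by 0.94, and Ndufb3 of complex I fell by 0.94 too. The widely expressed forms Cox6a1, Cox7a2 and Cox8a fell by 0.93, 0.84 and 0.55 (adjusted p = 1.81e-06, 1.32e-06 and 0.000321), whereas Cox6a2, Cox7a1 and Cox8b did not pass the test. Uqcrc1 and Atp5d, which had fallen before, rose by 0.62 (adjusted p = 0.00012) and 0.58 (adjusted p = 0.000188), to 9.46, 9.89 and 10.14 and to 9.45, 9.83 and 10.01. The other members that rose were Atp5b, Atp5g2, Atp5j2 and Ndufaf3.

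Set directly against week 1, week 8 showed the lower level in most members. In this comparison 73 members fell, or 78.5%, against 28.7% of all genes, and 1 rose, or 1.08%, against 29.1%. The member that rose was Sdhaf4, whose other transcript cluster changed by -0.98. The median was -0.46 over the members and 0.04 over all genes, and 89 members lay below 0. At 2-fold, 9 were downregulated, or 9.68%, against 4.76% of all genes, and none was upregulated, against 3.21%. The medians were alike in complexes I to V, at -0.50, -0.50, -0.46, -0.44 and -0.45.

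The members called at 2-fold over the whole period were mostly small accessory subunits. In complex I they were Ndufc1, Ndufc2, Ndufb6 and Ndufa1, with log2 fold changes of -1.37 ± 0.14, -1.35 ± 0.11, -1.21 ± 0.16 and -1.03 ± 0.16. Ndufc1 reached 7.83, 7.93 and 8.31 in week 8 and Ndufc2 reached 8.14, 8.34 and 8.54, with every array below the week 1 range in both. In complex IV they were Cox7a2, Cox6c and Cox8b. Cox7a2 went from 8.48, 8.60 and 8.91 in week 1 to 7.05, 7.38 and 7.59 in week 8, a fold change of -2.46 (adjusted p = 1.92e-09), and Cox6c ended at 9.005, 9.26 and 9.35. Cox8b, at 7.93, 8.61 and 9.34 in week 8, overlapped its week 1 range and had a change of -1.28 ± 0.33 (adjusted p = 0.00254). In complex V they were Atp5mpl, with a change of -1.12 ± 0.11, and Atp5md, with -1.09 ± 0.16, at 8.73, 8.96 and 9.36 in week 8. Ndufa4, a subunit now counted with complex IV, had a week 8 level within 0.01 of week 1 (log2 change -0.01 ± 0.10, adjusted p = 0.956), and Ndufs6 and Atp5d did not pass the test.

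The muscle forms were then set against their counterparts on the same array, where an array's overall level cancels. For 6 pairs in 5 comparisons there were 30 exact permutation tests over arrays, 2-sided and adjusted together, with 0.00216 as the smallest p that the design allows, and 4 of them passed. Cox8b minus Cox8a went from 1.18 ± 0.54 in week 1 to -1.98 ± 0.61 in week 2, a change of -3.16 (exact p = 0.00216, adjusted p = 0.0217). From week 3 to 6 it rose by 2.15, from -1.79 ± 0.49 to 0.36 ± 0.66 (adjusted p = 0.0217). With 27 arrays both of these changes had an exact permutation adjusted p of 0.0476. Cox7a1 minus Cox7a2 rose by 1.49 from week 3 to 6 (exact permutation adjusted p = 0.0325, and 0.0571 with 27 arrays), and its change of -1.36 from week 1 to 2 had an exact p of 0.00866 and an adjusted p of 0.0519, which became 0.026 with 30 arrays. For Cox6a2 minus Cox6a1 no change passed, the largest being 1.04 from week 3 to 6 (exact permutation adjusted p = 0.0812).

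The 3 remaining pairs hold forms not tied to muscle. Ndufa4l2 minus Ndufa4 fell by 1.17 from week 3 to 6, from -3.38 ± 0.33 to -4.55 ± 0.38 (exact permutation adjusted p = 0.0217, and 0.0476 with 27 arrays). In that interval Ndufa4 rose by 0.60 and Ndufa4l2 fell by 0.57. Cox4i2, known from lung and low oxygen, and Cox6b2, known from testis, changed against Cox4i1 and Cox6b1 by at most 0.39 in size, and no change passed.

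**Figure D3:**
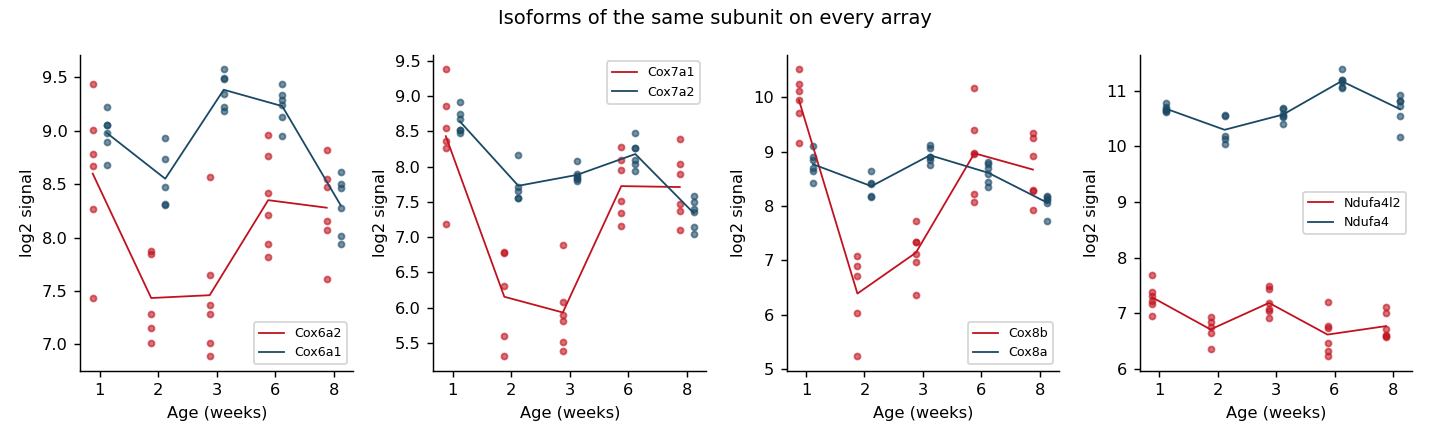
Log2 signal of Cox6a2, Cox7a1, Cox8b and Ndufa4l2 (red) and of their counterparts (blue) on every array used, by week, with 1 point per mouse and the weekly means joined by lines. Cox8b and Cox7a1 were low in weeks 2 and 3 and higher in weeks 1, 6 and 8, whereas Cox8a, Cox7a2 and Cox6a1 had their lowest weekly medians in week 8.

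The striated muscle markers moved with these forms. All 20 fell at least 2-fold from week 1 to 2, with a median log2 fold change of -3.63. Their median change was -0.30 from week 2 to 3, and 19 rose from week 3 to 6, with a median of 2.60. The 5 measured markers of brown fat, in which Cox7a1 and Cox8b are also known, averaged between 5.45 and 5.72 in the 5 weeks. At the adjusted p alone 3 of them rose and 1 fell from week 1 to 2, and 2 rose and 1 fell from week 3 to 6. Ucp1, which defines brown fat, stood at 5.06 ± 0.68, 4.97 ± 0.69, 4.50 ± 0.10, 4.84 ± 0.12 and 4.85 ± 0.15 (SD), so its arrays spread the most in weeks 1 and 2. The highest array mean of the 5 brown fat markers was 5.85, 6.00, 5.48, 5.76 and 5.87 in weeks 1, 2, 3, 6 and 8. Dio2, at 6.55, 5.83, 5.93, 6.65 and 6.70, fell by 0.72 from week 1 to 2 (adjusted p = 1.56e-06) and rose by 0.72 from week 3 to 6 (adjusted p = 9.99e-07). On the adipocyte list Fabp4 had a fold change of -2.19 and then of 2.37 in these comparisons (adjusted p = 0.0121 and 0.00571). Cidec went the other way, with log2 fold changes of 0.96 and -0.35 (adjusted p = 3.1e-07 and 0.0118). Of the 5 genes on that list, 2 rose and 1 fell at the adjusted p alone in each of these comparisons. The part of fat in the members' change was not tested.

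The array's mean muscle marker signal was therefore added to the fit, an alternative in which the spread of arrays within a week sets the coefficient. The coefficient was positive and past the test for 34 of the 93 members, or 36.6%, against 3.91% of all genes, and negative for none, against 0.517% (0 at an unadjusted p under 0.05). These were 11 members of complex I, 2 of complex II, 4 of complex III, 9 of complex IV and 8 of complex V. The largest were those of Cox7a1, at 0.82 ± 0.06 per unit of muscle signal, Cox6a2, at 0.77 ± 0.04, and Cox8b, at 0.76 ± 0.10, and the next was Sdhb, at 0.32. For Cox6a1, Cox7a2 and Cox8a it was -0.08, 0.06 and 0.05 and did not pass. The coefficient of the photoreceptor markers, fitted the same way, passed limma's test for no member, with 6 members at an unadjusted p under 0.05. How many of all genes passed for that coefficient was not counted, so the 2 coefficients cannot be compared by these counts.

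With the muscle signal in the fit, 7 members rose and 6 fell from week 1 to 2, and their median log2 fold change was 0.04 in place of -0.51. Cox8b and Cox7a1 no longer passed the test, at -0.90 and 0.60, and Cox6a2 turned to 1.54. From week 3 to 6 the median became -0.38, with 7 members up and 38 down. The muscle signal overlapped neither between weeks 1 and 2 nor between weeks 3 and 6. For these comparisons the fit extends a slope set within weeks over a gap between them, and its week estimates are less precise. The part of muscle in the members' change is therefore not given by this fit. From week 1 to 8, where the muscle signal differed the least from week 1, 68 members fell and the median was -0.38. The shares of all genes that rose or fell in the fits with a covariate were not counted. Leaving the 3 muscle forms out of the member list gave medians of -0.49, 0.21, 0.08, -0.26 and -0.46 in the 5 comparisons. A median moves little when 3 of 93 values are left out, whatever the part of muscle in the other members. The spread of the arrays also moved with the weeks: with an array's interquartile range in the fit, 27 members fell and 1 rose from week 1 to 2, and 54 fell from week 1 to 8. The fibroblast, photoreceptor, pigment epithelium and leukocyte markers fell from week 1 to 2 as well, in 11 of 12, 13 of 13, 5 of 6 and 5 of 7 genes, with Lyz2 and Csf1r at fold changes of -3.05 and -2.86 among the last. With the photoreceptor signal in the fit, 16 members were downregulated at 2-fold from week 1 to 2 and the median was -0.61. Apart from the fits given here, the part of these tissues in the members' change was not tested.

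**Figure D4:**
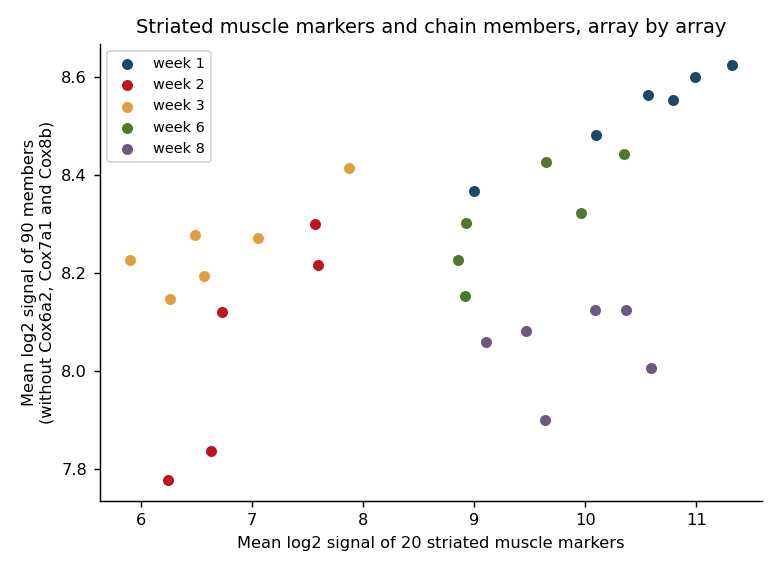
Mean log2 signal of the 90 members other than Cox6a2, Cox7a1 and Cox8b against the mean of 20 striated muscle markers, with 1 point per array coloured by week. Weeks 1 and 8 averaged 10.46 and 9.88 for the muscle markers and 8.53 and 8.05 for the members, and within week 2 the arrays with the least muscle signal have the lowest member means.

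Other genes of mitochondrial energy supply were read from lists of known function. From week 1 to 2, 14 of 17 citric acid cycle genes fell and 1 rose, with a median of -0.89, led by Dld, the shared dehydrogenase subunit, at -1.34, and Idh3a at -1.31. On a list of 15 genes around the carriers of electrons, ADP and ATP, 10 fell and 2 rose. This carrier list also holds the creatine kinases Ckmt1 and Ckmt2, the pores Vdac1, Vdac2 and Vdac3, and Cyc1. The last is a subunit of complex III that the symbol rule does not take. Cytochrome c, Cycs, changed by -1.49, the muscle creatine kinase Ckmt2 by -2.31 and the ADP/ATP carrier Slc25a4 by -1.77, whereas Ckmt1 rose by 1.19. Of 15 fatty acid oxidation genes 12 fell, and of 16 glycolysis genes 14 fell, 9 of them at 2-fold, led by the muscle forms Pgam2, at -3.58, and Eno3, at -2.94. Of 24 assembly factors outside the symbol rule 13 fell and 1 rose. The 77 genes of the mitochondrial ribosome were divided, with 39 down and 13 up and a median of -0.22. Among 12 genes that control mitochondrial genes, 7 fell and 1 rose. Ppargc1a, a coactivator of mitochondrial biogenesis, was the largest of them, at -2.44 (adjusted p = 4.37e-10), and it rose by 1.35 from week 2 to 3. In the study's own qPCR, on pooled sclera of other mice, the rise was borne out but the fall from week 1 to 2 was not.

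In the later comparisons these lists went different ways. From week 3 to 6, 9 of the 15 genes on the carrier list rose and none fell, with Ckmt2 at 2.54 and Cycs at 1.43. The citric acid cycle was split at 5 up and 5 down and the mitochondrial ribosome at 27 up and 24 down. From week 6 to 8, 31 ribosomal genes fell and 10 rose, and among the glycolysis genes 6 rose and 1 fell. From week 1 to 8, 47 of 77 ribosomal genes, 13 of 17 citric acid cycle genes and 9 of 15 genes on the carrier list fell. So did 9 of 15 fatty acid oxidation genes and 8 of 16 glycolysis genes, and Ppargc1a was 1.18 lower on the log2 scale. These counts stand beside the shares of all genes given for each comparison, and no test of the lists as sets was made.

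**Figure D5:**
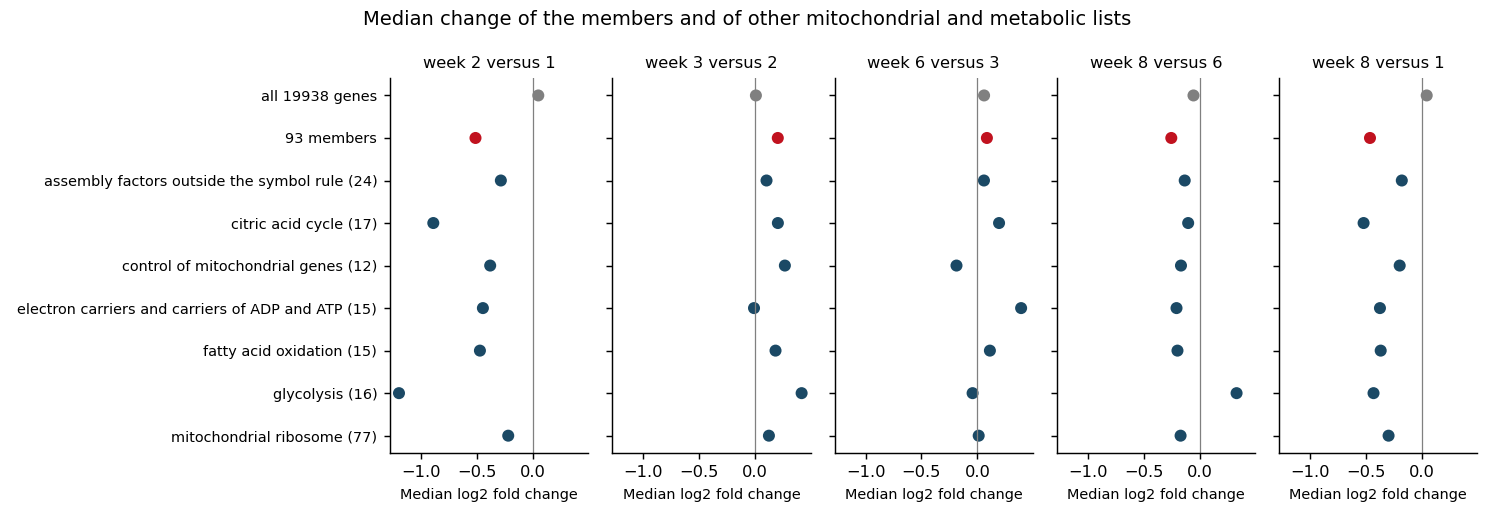
Median log2 fold change of all genes, of the 93 members and of the 7 other lists in the 5 comparisons, with 1 point per list. The members' medians were -0.51, 0.20, 0.09, -0.25 and -0.46, and the medians of all genes stayed between -0.05 and 0.06.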

How the data were processed

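Total RNA from the single, cryoground sclera of each of 30 Balb/cJ mice, 6 at each of 5 ages, was labelled and hybridised to Mouse Gene 1.0 ST arrays. The authors deposited 1 log2 signal per transcript cluster and array. The methods of the study name robust multiarray averaging and a removal of scan date effects, whereas GCRMA and Partek 6.5 stand in the submitters' notes on processing, so the summarisation is not settled. Scan dates and sex are not given in the sources used here. Precision is limited by how many arrays there were.

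Unscaled further, they entered a linear model with a mean for each week over all 35556 transcript clusters (limma 3.58.1, R 4.3.3). P-values were adjusted by the Benjamini-Hochberg method over all of them within each comparison. Members that changed at least 2-fold with an adjusted p of 0.05 or below count as called, and a member is said to have risen or fallen at the adjusted p alone. A fold change below 1 is given as the negative of its inverse. The plan was to fit all 30 arrays. Week 2 replicate 4 was left out once it was seen to be the mean of the other 5, to within 0.0001 in every transcript cluster.

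Members, lists and tests were chosen with earlier results of these data known. Named members are the isoform pairs, the core subunits and the 3 members of each complex with the largest change past the test in each comparison. A few others were named after their values were seen, where a small count was spelled out. Gene symbols come from the platform annotation, and the promoter sequences from RefSeq. The fit was tested on simulated data for week 2 versus 1 over 35556 transcript clusters, where it recovered 97 of 100 changes of 1.5 and 34 of 100 changes of 0.5 on the log2 scale, with 7 false calls. Alternatives were median centring, quantile normalization, array quality weights, clusters with 1 symbol or above the median signal, the mean over clusters of a gene, only the 2 weeks compared, no moderation, a replicate block, a muscle covariate and leaving out each array. Fits of 30 and of 27 arrays, of week 2 without replicates 1 and 2, and with a photoreceptor or array spread covariate were chosen after seeing the data.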

Additional observations from a re-analysis of the deposited data

Results flagged for a closer look

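An array was singled out where its gap to the nearest other array of its week exceeded Dixon's critical share of the week's range. This was tested in 320 groups, made of the named members and class means by week, and found 12, where chance gives about 1 in 20. In week 8 replicate 5 was the low array in 4 of them: Cox4i1 at 8.44 (nearest array 8.80), Cox5b at 9.36 (nearest 9.71), Cox8a at 7.72 (nearest 8.06) and Ndufa1 at 6.66 (nearest 7.18). In week 3 replicate 3 was the high array for Atp5c1 at 10.55 (nearest 10.32), Cox5a at 9.01 (nearest 8.54) and Ndufs3 at 9.53 (nearest 9.30). Cox7a2 was high in week 2 replicate 5, at 8.16 (nearest 7.71), and in week 3 replicate 1, at 8.08 (nearest 7.89). Atp5d was low in week 6 replicate 2, at 8.83 (nearest 9.19), Ndufaf2 was high in week 8 replicate 3, at 6.42 (nearest 6.23), and the mean of the assembly factors was low in week 3 replicate 1, at 6.35 (nearest 6.41).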

How the results depend on the processing

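The count of members called at 2-fold from week 1 to 2, 11 in the fit reported and all downregulated, was 16 with the photoreceptor covariate, 4 after quantile normalization, 4 without week 2 replicates 1 and 2, 2 with the array spread covariate and 1 with the muscle covariate, Cox6a2, which was upregulated there. At the adjusted p alone, 76 members passed there, and 28 with the array spread covariate and 13 with the muscle covariate. The median of -0.51 became -0.61 with the photoreceptor covariate, -0.31 without the 2 arrays, -0.25 with the array spread covariate and 0.040 with the muscle covariate. From week 2 to 3, the 34 members past the adjusted p became 22 after quantile normalization, 11 without the 2 arrays and 5 with the array spread covariate, and the median of 0.20 became -0.0090 after quantile normalization and -0.079 with the array spread covariate. From week 3 to 6, the median of 0.09 became -0.0022 with median centring, -0.38 with the muscle covariate and 0.34 with the array spread covariate, and the 2 up and 2 down at 2-fold became 0 and 6 with the muscle covariate and 6 and 0 with the array spread covariate. From week 6 to 8, the 2 members called at 2-fold became 1 with median centring, 1 with the mean over transcript clusters and 5 with the array spread covariate, and from week 1 to 8 the 9 became 4 with the last. With the muscle covariate many members changed direction from week 1 to 2, as their median itself rose above 0. The muscle forms that did so were, from week 1 to 2, Cox6a2, to 1.54, and Cox7a1, to 0.60. From week 3 to 6 they were Cox6a2, to -1.23, Cox7a1, to -0.46, and Cox8b, to -0.26. The cause of these shifts was not tested.

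Leaving out each array in turn gave 5 to 15 members at 2-fold from week 1 to 2 (5 without week 2 replicate 2 and 7 without replicate 1), 0 to 1 from week 2 to 3 (1 without week 2 replicate 5), 4 to 6 from week 3 to 6, 2 to 3 from week 6 to 8 and 8 to 9 from week 1 to 8. At the adjusted p alone the ranges were 70 to 82, 21 to 49 (21 without week 2 replicate 2), 48 to 52, 39 to 47 and 70 to 75, and the medians ran from -0.57 to -0.42, 0.13 to 0.26, 0.06 to 0.13, -0.27 to -0.21 and -0.51 to -0.45.

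With the replicate number as a block, 10, 0, 4, 2 and 9 members were called at 2-fold and 75, 30, 52, 46 and 75 at the adjusted p alone, in the order of the comparisons above with week 8 versus 1 last. Arrays of the same number correlated by -0.0056 to 0.068 on average in their deviations from the weekly means, so the replicate block joins arrays that share only a number. With all 30 arrays 78, 41, 53, 47 and 75 members passed the adjusted p, and with 27 arrays 76, 31, 45, 38 and 73.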
